A study of Mus musculus with 359 samples.

Results

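Most subunits of the respiratory chain are encoded in the nucleus, and the transcripts of these genes were followed in 2 tissues, liver and lung, of B6C3F1 mice of both sexes, a hybrid laboratory strain, given 4-methylimidazole (4-MEI), an imidazole compound that arises during the making of some caramel colours. The genes were chosen by symbol: the numbered Nduf a, b, c, s and v genes of complex I, Sdha to Sdhd of complex II, the Uqcr genes of complex III, the Cox4 to Cox8 genes of complex IV and the Atp5 genes of complex V. They also had to reach a mean of 5 in CPM, which scales the reads of a gene to the total of counted reads in its library, in a table of 1 tissue and day. Of 24421 gene symbols, 84 matched, 77 reached that level in at least 1 of the 6 tables and 68 did so in all 6. At day 2 there were 71 of these genes in liver and 73 in lung, at day 5 there were 72 and 74, and at day 28 there were 72 and 75. By complex, 35 of 37 matching genes of complex I, 4 of 4 of complex II, 8 of 8 of complex III, 15 of 18 of complex IV and 15 of 17 of complex V were measured in this way. The genes that reached 5 CPM in no table were Ndufb4, Ndufs5, Cox7b2, Cox8b, Cox8c, Atp5g2 and Atp5l. Ndufs5 had a mean of 0 CPM in each of the 6 tables, and the reason was not tested. At the edge of the rule in the liver table of day 2, Atp5k had a mean of 6.58 CPM and was kept, and Atp5s had 4.79 CPM and was left out. All genes kept in a table passed the filter on low counts there. The rule works on symbols: it places Ndufa4, now often counted with complex IV, in complex I, and it takes in Atp5sl, which is known as an assembly factor.

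The series holds 359 mRNA libraries in 60 groups, and all mice were of the same strain, with no further genotype in the labels. For 2 days mice received 0, 50, 100, 200 or 300 mg/kg-d 4-MEI by gavage. For 5 or 28 days they received 0, 150, 300, 1250 or 2500 ppm in the feed. Each tissue, day, sex and dose made a group of 6 libraries, except lung of females at 2500 ppm on day 5, which had 5. Each dose group was set against its own vehicle group, matched for tissue, day and sex, and the question was whether the transcripts of the chain moved with dose, and in which complexes. Nothing in the labels goes beyond separate samples, so the p-values measure the spread between these samples.

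The chain sits in the inner mitochondrial membrane. Complex I takes electrons from NADH and complex II from succinate, complex III passes them through cytochrome c to complex IV, which reduces oxygen, and complex V uses the proton gradient so formed to make ATP. Liver depends on it for urea and glucose synthesis. Some complex IV subunits exist in a widely expressed form and in another form of heart and skeletal muscle (Cox6a2, Cox7a1 and Cox8b), of lung (Cox4i2) or of testis (Cox6b2). A handful of core subunits is encoded in mitochondrial DNA, and those genes were not analysed here.

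Library totals ranged from 7253910 to 22527309 counted reads over the 6 tables. The dependence of the counts on transcript length and, in lung, the level of heart muscle markers touch the results and are given beside them. The transcripts of the respiratory chain are short. The longest annotated transcript had a median length of 1046 bases, against 3361 bases over the genes tested in liver at day 2, and by complex the median was 1046 bases for I, 2066 for II, 1082 for III, 709 for IV and 1697 for V. The sex of the titles matched the Y-linked genes and Xist in all libraries but 1: the lung library labelled female, 300 mg/kg-d, day 2, replicate 78, carried little of either, with Xist at 0.639 CPM and 4 genes of the Y chromosome at 0.0639 CPM in sum. Liver libraries carried hepatocyte markers such as Alb, and lung libraries carried alveolar markers such as Sftpc. Where reads of 50 bases cannot be placed on 1 gene alone, counts are uncertain: of the windows of that length in their transcripts, Atp5l shared 84.8% with other genes, Atp5o 47.6%, Ndufs3 39.7%, Atp5h 36.9%, Cox5a 32%, Cox7c 23% and Cox5b 21.8%, while Ndufa6, Sdhb, Ndufb10 and Cox6b1 shared none.

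Promoters are shown for 1 gene of each complex, picked for the results below or for the motifs they hold, because nuclear respiratory chain genes are known for short control regions read by the factors NRF1, GABPA (an ETS factor), YY1 and the estrogen-related receptors. RefSeq promoters (build GRCm38.p6, from 250 bases before to 50 bases after the start) were found for 63 of the 77 genes. On either strand, the NRF1 letters, GCGCA followed by any base and GCGC, stood in 14 of the 63 (22.2%), against 5.19% of the 27025 genes with a promoter. The YY1 letters AANATGGCG stood in 11 (17.5%, against 2.76%), the ETS letters CCGGAAGT in 5 (7.94%, against 4.31%) and the ERR letters TCAAGGTCA in 2 (3.17%, against 0.47%). No motif contains another, and a match describes the sequence, not a bound site. In the following sequences, 5′ to 3′ in the direction of the gene, capitals mark the NRF1 letters in Ndufa6 (complex I, chr15:82354242-82354541, minus strand), in Sdha (complex II, chr13:74350191-74350490, minus strand) and, together with the ETS letters, in Atp5h (complex V, chr11:115419870-115420169, minus strand). In Uqcr11 (complex III, chr10:80406772-80407071, minus strand) and Cox8a (complex IV, chr19:7217567-7217866, minus strand) capitals mark the ETS letters.
Ndufa6: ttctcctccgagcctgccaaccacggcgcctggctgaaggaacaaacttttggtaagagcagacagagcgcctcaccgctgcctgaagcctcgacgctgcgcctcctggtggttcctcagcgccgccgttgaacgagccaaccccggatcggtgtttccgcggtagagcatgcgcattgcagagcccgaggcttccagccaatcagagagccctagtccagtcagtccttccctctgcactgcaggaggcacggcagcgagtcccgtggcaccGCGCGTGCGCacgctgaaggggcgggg
Sdha: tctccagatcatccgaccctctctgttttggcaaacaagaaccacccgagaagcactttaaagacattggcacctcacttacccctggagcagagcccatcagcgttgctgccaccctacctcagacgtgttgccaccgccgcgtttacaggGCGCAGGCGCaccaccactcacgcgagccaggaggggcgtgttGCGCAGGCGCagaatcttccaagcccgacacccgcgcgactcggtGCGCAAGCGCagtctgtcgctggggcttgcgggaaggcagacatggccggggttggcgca
Uqcr11: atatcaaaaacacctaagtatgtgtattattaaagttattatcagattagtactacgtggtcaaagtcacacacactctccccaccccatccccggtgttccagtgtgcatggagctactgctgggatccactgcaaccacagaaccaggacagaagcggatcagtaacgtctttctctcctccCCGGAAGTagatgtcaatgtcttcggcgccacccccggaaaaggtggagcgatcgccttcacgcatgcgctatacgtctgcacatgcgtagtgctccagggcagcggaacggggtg
Cox8a: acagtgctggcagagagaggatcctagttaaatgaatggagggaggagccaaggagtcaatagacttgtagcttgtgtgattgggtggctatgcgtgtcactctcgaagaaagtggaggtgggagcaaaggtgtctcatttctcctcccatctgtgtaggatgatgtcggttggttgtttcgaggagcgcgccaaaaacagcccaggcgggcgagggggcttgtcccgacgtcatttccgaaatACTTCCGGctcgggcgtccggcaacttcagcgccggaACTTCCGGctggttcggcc
Atp5h: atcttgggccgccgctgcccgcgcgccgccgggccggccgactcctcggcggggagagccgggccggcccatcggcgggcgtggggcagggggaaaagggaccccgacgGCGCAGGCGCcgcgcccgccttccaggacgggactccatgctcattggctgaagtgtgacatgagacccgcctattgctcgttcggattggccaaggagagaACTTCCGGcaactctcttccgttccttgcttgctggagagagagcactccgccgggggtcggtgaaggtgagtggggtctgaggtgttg
Sdha carried 3 NRF1 matches, Cox8a carried 2 ETS matches, and Ndufa6, Uqcr11 and Atp5h carried 1 match of each kind marked. The values of these genes follow.

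In liver after 2 days at 300 mg/kg-d, the transcripts of the chain were slightly lower in both sexes, and no gene of the 71 was called higher (8.64% of all genes were in males and 15.3% in females). In females 19 of the 71 fell (26.8%), where 14.7% of all 12627 genes tested fell, and the median log2 fold change was -0.17 against -0.02 for all genes. In males 7 fell (9.86%, against 6.47% of all genes) with a median of -0.17 against -0.00. The fold changes of 67 genes were below 0 in females and of 67 in males. Calls are at an adjusted p under 0.05 in edgeR's quasi-likelihood test. The changes were small, between -0.38 and 0.09 on the log2 scale in females and between -0.50 and 0.08 in males. In bulk tissue, fewer cells of a type and less RNA per cell cannot be told apart.

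The medians of all 5 complexes were below 0. In females the median log2 fold change was -0.19 for complex I (12 of 34 genes fell), -0.13 for complex II (1 of 4), -0.20 for complex III (2 of 8), -0.15 for complex IV (2 of 11) and -0.15 for complex V (2 of 14). In males it was -0.20 for complex I (4 of 34), -0.16 for complex II (1 of 4), -0.17 for complex III (1 of 8), -0.12 for complex IV (1 of 11) and -0.12 for complex V (0 of 14). At an unadjusted p under 0.05, 31 of the 71 genes passed in females and 36 in males, all of them lower. Of all 12627 genes, 2615 were lower and 2514 higher at that limit in females, and 1857 and 1986 in males. DESeq2 called 18 genes of the chain in females and 11 in males. The share of all genes it called is not given here, so these counts do not separate the chain from all genes. A difference between the sexes in the effect of 300 mg/kg-d was called for 0 of 71 genes by edgeR (0.00792% of all genes were called). None passed an unadjusted p of 0.05, DESeq2 called 0, and the median difference was -0.01.

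Ndufa6, an accessory subunit of complex I in the arm that faces the matrix (chr15, 82350140 to 82354322, minus strand), had the smallest p of its complex in females. Its level was 80.6, 82.7 and 103.7 CPM (lowest, median and highest of 6 libraries, scaled with TMM) in vehicle females and 62.7, 65.5 and 73.9 CPM at 300 mg/kg-d. In males it was 84.7, 88.02 and 102.2 CPM in vehicle and 69.04, 75.9 and 82.7 CPM at 300 mg/kg-d. The dosed libraries lay below all vehicle libraries in each sex. The log2 fold change was -0.36 (SE 0.07, adjusted p = 0.000165) in females and -0.24 (SE 0.07, adjusted p = 0.0181) in males. Ndufb10, an accessory subunit of the membrane arm, fell by 0.37 in females (SE 0.09, adjusted p = 0.00146), and Ndufb8 of the same arm fell by 0.30 (adjusted p = 0.00944). In males the members of complex I with the largest called changes were Ndufa8, Ndufa6 and Ndufs4, at -0.26, -0.24 and -0.22. The smallest change of the complex in females was that of Ndufa9 (-0.04, adjusted p = 0.66). The other members of complex I called in females were Ndufa1, Ndufa8, Ndufa12, Ndufb5, Ndufb9, Ndufc2, Ndufs3, Ndufs7 and Ndufv3, between -0.28 and -0.18.

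In complex II, Sdhb was called in both sexes and Sdha in neither. Sdhb, the iron-sulfur subunit (chr4, 140961203 to 140979193, plus strand), stood at 227, 232 and 257 CPM in vehicle males and at 195, 204 and 214 CPM in males at 300 mg/kg-d, with no overlap. In females it stood at 199, 224 and 257 CPM in vehicle and at 192, 196 and 206 CPM at 300 mg/kg-d, and the groups overlapped. Its log2 fold change was -0.21 (SE 0.06, adjusted p = 0.0194) in males and -0.19 (SE 0.06, adjusted p = 0.0173) in females. Sdha, the flavoprotein that oxidises succinate, was the gene of the complex nearest 0: 505, 540 and 611 CPM in vehicle females against 546, 576 and 593 CPM at 300 mg/kg-d, a log2 fold change of 0.06 (SE 0.06, adjusted p = 0.417). In males its fold change was 0.03 (SE 0.06, adjusted p = 0.755). The difference between Sdha and Sdhb was not tested.

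Complex III showed its largest change in Uqcr11, a small accessory subunit (chr10, 80402997 to 80406830, minus strand). Vehicle females had 20.7, 22.7 and 27.01 CPM and females at 300 mg/kg-d had 15.4, 18.3 and 19.8 CPM, with no overlap. Vehicle males had 20.6, 21.7 and 29.7 CPM and males at 300 mg/kg-d had 16.3, 19.9 and 21.6 CPM, and these overlapped. The log2 fold change in females was -0.38 (SE 0.12, adjusted p = 0.0143). Uqcrq, a small subunit, fell by 0.28 in females (adjusted p = 0.0212), and Uqcr10 fell by 0.28 in males (adjusted p = 0.0493). The core protein gene Uqcrc2 was nearest 0, at 0.03 in females (adjusted p = 0.727) and -0.02 in males (adjusted p = 0.841).

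In complex IV, Cox6b1, the common form of a subunit on the outer face (chr7, 30616861 to 30626151, minus strand), had 62.3, 70.1 and 79.3 CPM in vehicle females and 55.2, 60.1 and 63.8 CPM at 300 mg/kg-d, with overlap. Its log2 fold change was -0.24 (SE 0.08, adjusted p = 0.0152). In males the values were 57.6, 66.9 and 70.7 CPM against 55.3, 61.2 and 71.9 CPM, and the groups overlapped. Cox5b fell by 0.28 in females (adjusted p = 0.021). Cox7c, a small membrane subunit, had the largest change in males: 8.03, 8.95 and 9.76 CPM in vehicle against 4.64, 6.72 and 7.39 CPM at 300 mg/kg-d, with no overlap and a log2 fold change of -0.50 (SE 0.14, adjusted p = 0.0124). In females Cox7c was at -0.16 (adjusted p = 0.416). Nearest 0 were Cox5a in females (-0.00, adjusted p = 0.993) and Cox7a2l in males (-0.03, adjusted p = 0.774).

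In complex V, Atp5h, the d subunit of the stalk (chr11, 115415689 to 115419962, minus strand), had 19.5, 21.5 and 22.6 CPM in vehicle females and 15.8, 16.99 and 17.7 CPM at 300 mg/kg-d, with no overlap and a log2 fold change of -0.32 (SE 0.09, adjusted p = 0.0032). In males the values were 17.7, 19.3 and 24.03 CPM against 16.3, 18.2 and 19.6 CPM, with overlap, and no gene of complex V was called in males by edgeR, where 6.47% of all genes fell. Atp5o, which links the catalytic head to the stalk, fell by 0.21 in females (adjusted p = 0.0438). Atp5b, the catalytic subunit, was nearest 0 in females at -0.00 (adjusted p = 0.972), and Atp5sl was nearest 0 in males at 0.01 (adjusted p = 0.984).

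**Figure D1:**
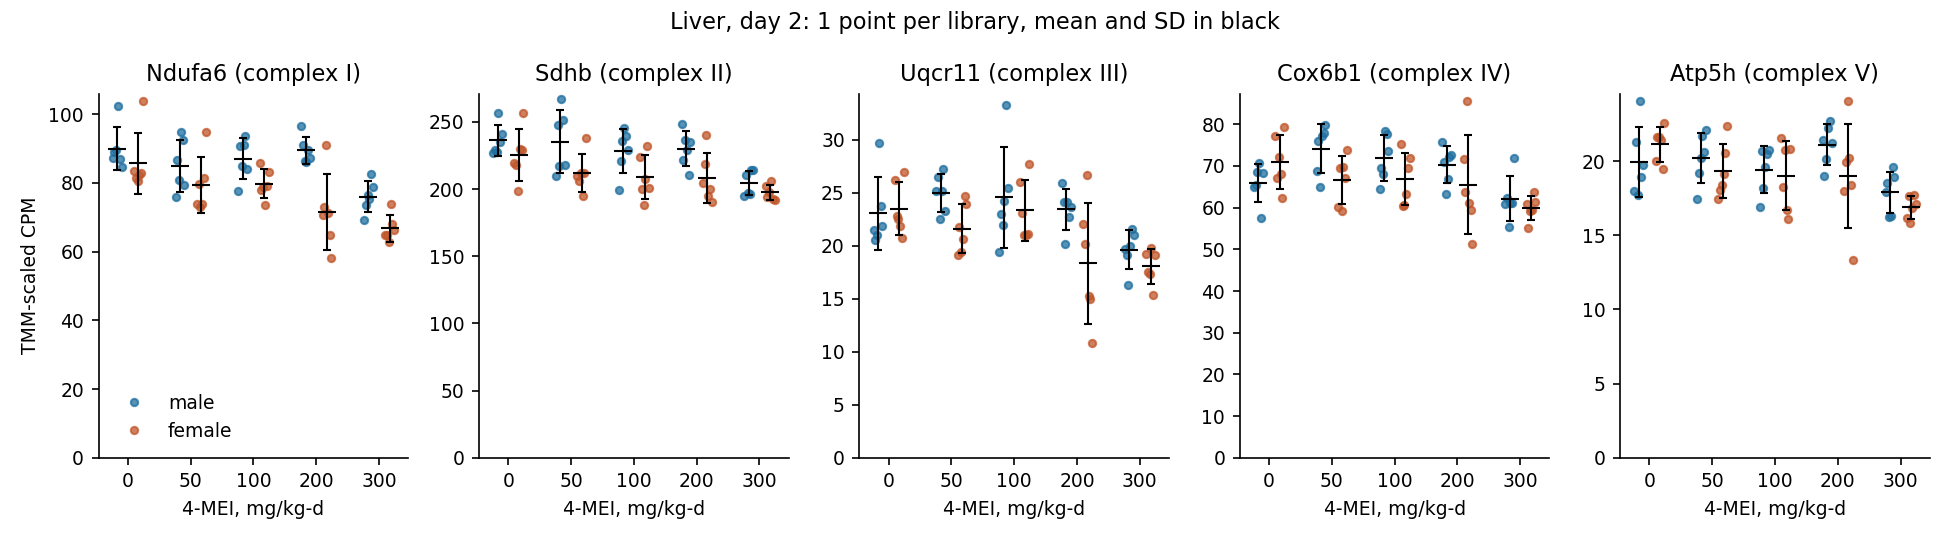
TMM-scaled CPM (vertical axes, from 0) of Ndufa6, Sdhb, Uqcr11, Cox6b1 and Atp5h in liver at day 2, by dose in mg/kg-d (horizontal axes), with males in blue and females in orange. Each point is 1 library of 6 per group and black marks give the mean and SD. Ndufa6 shows no overlap between vehicle and 300 mg/kg-d in either sex, with a highest dosed value of 82.7 CPM in males and 73.9 CPM in females.

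These counts moved with single libraries. In males 0 genes were called without replicate 65, 1 without replicate 6, 3 without replicate 7, 4 without replicate 68 and 15 without replicate 69. In females 10 were called without replicate 15. The share of all genes called without these libraries is not given here, so the counts do not separate the chain from all genes. Library totals also differed: the 300 mg/kg-d groups had about 14905500 to 20398600 reads and the vehicle groups about 8457030 to 15439600 reads. Hepatocyte markers were called higher for 3 of 6 genes and lower for 1 in females, with sums of 185107 to 206196 CPM at 300 mg/kg-d against 144453 to 197585 CPM in vehicle, and for 0 of 6 in males. Whether depth or the hepatocyte share has a part in the result was not tested.

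Transcript length moved with the result. In the 300 mg/kg-d groups, the median fold change of all genes was below 0 in the bins of short transcripts and above 0 over 4000 bases. Among genes whose longest transcript has 600 to 1000 bases, the median log2 fold change in females was -0.25 for all 443 genes and -0.18 for the 25 of the respiratory chain. In males it was -0.20 for all 443 and -0.19 for the 25. Between 1000 and 2000 bases, the values in females were -0.17 for 2120 genes and -0.14 for 24, and in males -0.14 and -0.16. Under 600 bases they were -0.20 for 85 genes and -0.20 for 6 in females, and -0.17 and -0.15 in males. Between 2000 and 4000 bases the 13 genes of the chain stood at -0.11 in females, against -0.05 for 5173 genes, and at -0.14 in males, against -0.03. Over 4000 bases, 3 genes of the chain were at -0.22 in both sexes, while all 4736 genes of that length were at 0.13. Those 3 were Atp5g1, Ndufb2 and Ndufb7, and the gap depends on the measure of length: by median coding transcript 0 genes of the chain were over 4000 bases, and the 6 of 2000 to 4000 bases were at -0.06 in females and -0.05 in males, against 0.01 for all 5171 genes in each. Of all genes of 600 to 1000 bases 34.3% fell in females, and 10 of the 25 of the chain did.

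**Figure D2:**
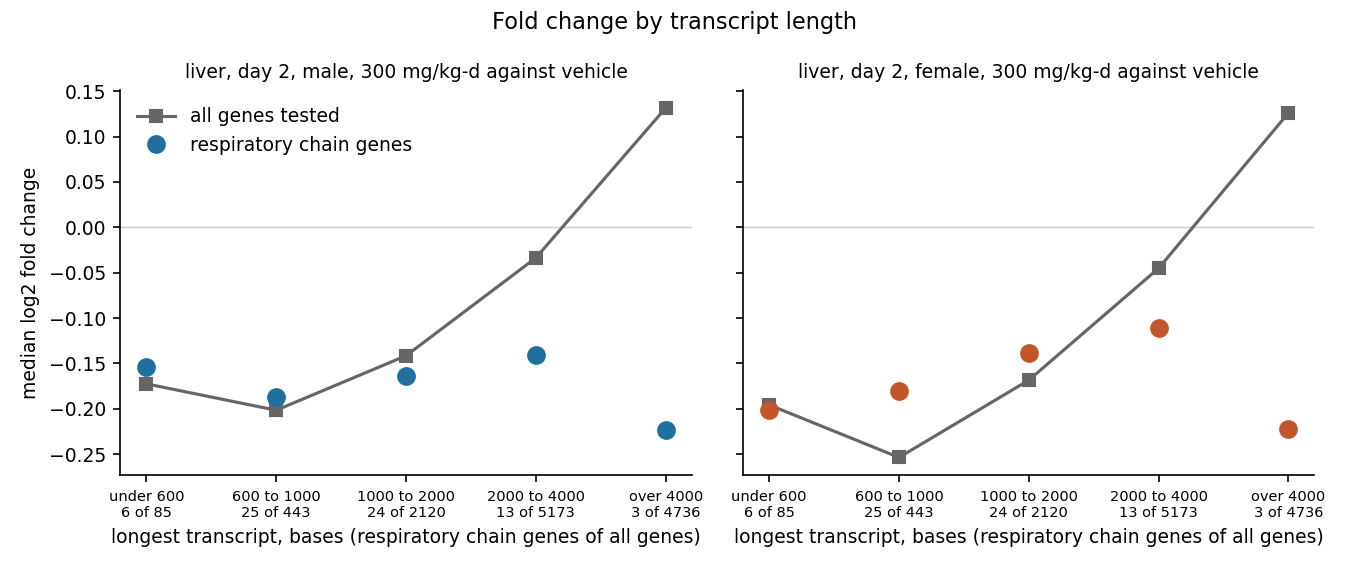
Median log2 fold change (vertical axis) of 300 mg/kg-d against vehicle in liver at day 2, by length of the longest transcript in bases (horizontal axis, with the number of respiratory chain genes of all genes in each bin), males on the left and females on the right. Grey squares are all genes tested and coloured circles the respiratory chain genes, which lie near the squares up to 2000 bases and below them over 2000 bases.

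With an offset in each library for its own trend of counts against transcript length, the medians of the chain lay near 0. In males the median log2 fold change was then -0.01 and 0 of 71 genes were called by edgeR. In females it was 0.04, with 5 genes higher and 4 lower. Those called lower were Ndufa6 (-0.15, adjusted p = 0.0218), Ndufb5 (-0.20, adjusted p = 0.0391), Ndufb7 (-0.30, adjusted p = 0.0357) and Atp5g1 (-0.30, adjusted p = 0.0458). Those called higher were Uqcrfs1, the Rieske iron-sulfur protein of complex III (0.24, adjusted p = 0.000464), Uqcrc2 (0.15), Cox7a2l (0.20), Ndufa7 (0.18) and Ndufs1, the largest core subunit of complex I (0.15). With the median coding transcript as the length, 3 genes were higher in females (Uqcrfs1, Cox5a and Ndufa7) and 0 lower, and 1 was higher in males (Cox5a, 0.27). Genes named after the offset were chosen after their values were seen. The share of all genes called with either offset is not given here, so these counts are not read as particular to the chain. Without an offset 15.3% of all genes were higher and 14.7% lower in females.

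The same relation held from library to library. The level of the chain in a library was taken as the median log2 difference of its genes from the vehicle mean of the same sex, and the length trend as the slope of all other genes on log2 transcript length. In liver at day 2 the slopes were 0.08 to 0.20 in males and 0.10 to 0.16 in females at 300 mg/kg-d, against -0.06 to 0.03 and -0.04 to 0.03 in vehicle. Over the 60 libraries Pearson's r was -0.85 and Spearman's rho -0.77 (permutation p = 1e-05 for both, the smallest that 100000 permutations give), and within groups r was -0.88. In the other tables r over all libraries was between -0.98 (liver, day 5) and -0.86 (lung, day 5), and within groups between -0.99 and -0.89. Without the 2 libraries farthest from the median slope, r in liver at day 2 was -0.80. In lung at day 2 it dropped from -0.92 to -0.47 without them, and rho was -0.44. In these 12 relations every Benjamini-Hochberg adjusted p of r was 1e-05, and that of rho was 1.09e-05, or 0.00064 in lung at day 2 over all libraries. The 5 complexes moved together from library to library, with a median r between complexes, within groups, of 0.86 to 0.97 over the 6 tables. These points share their library, its depth and its length trend. A steeper slope goes with lower levels of short transcripts in general, and those of the chain are short. The p-values therefore test nothing particular to the chain.

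**Figure D3:**
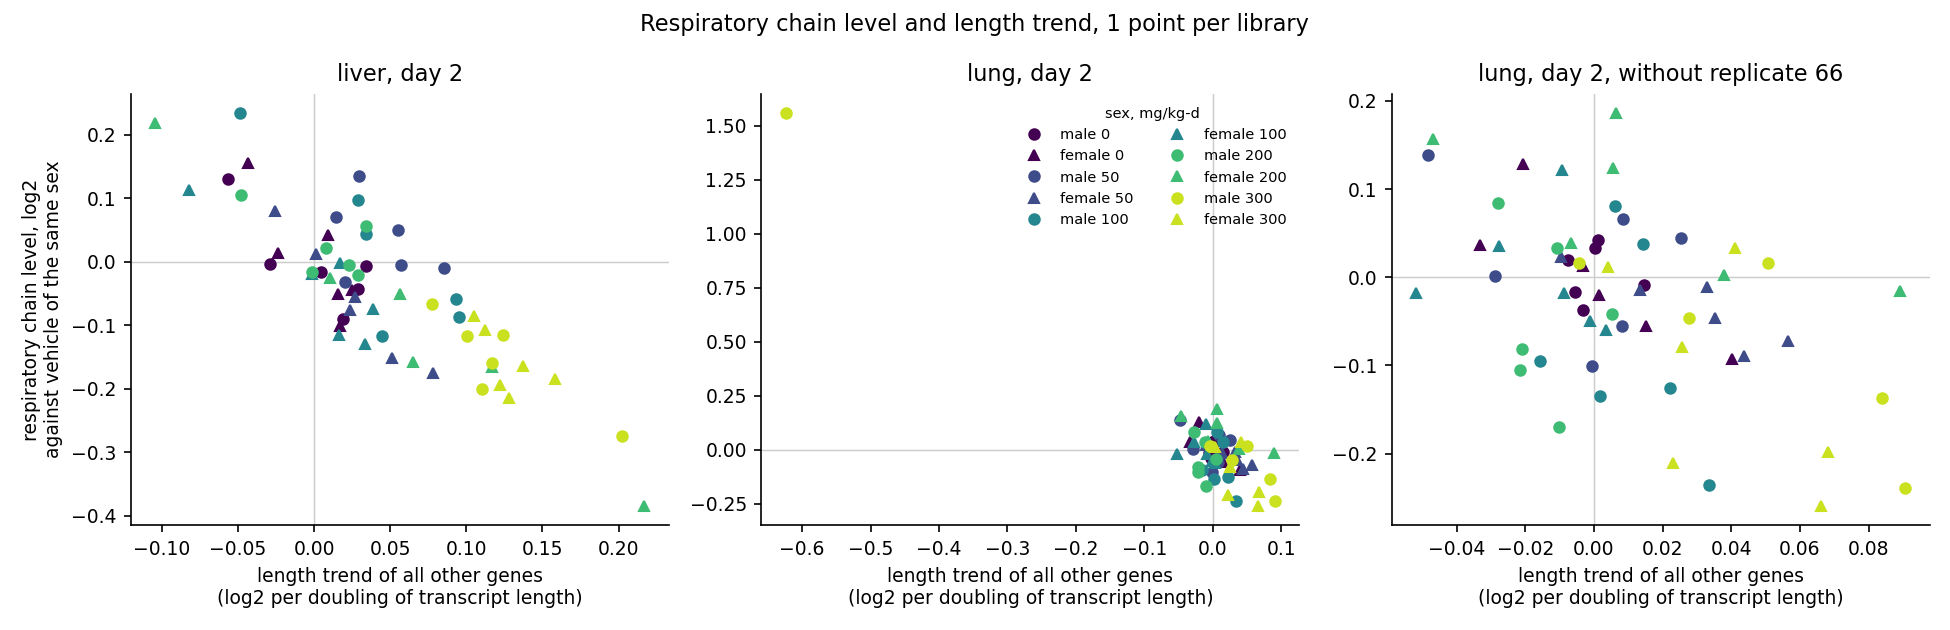
Median level of the respiratory chain genes in a library against vehicle of the same sex (vertical axis, log2) and the length trend of all other genes (horizontal axis, log2 per doubling of transcript length) for liver at day 2, lung at day 2, and lung at day 2 without replicate 66. Each point is 1 library, circles are males, triangles females, and colour gives the dose. The 300 mg/kg-d liver libraries lie at slopes of 0.08 to 0.20, and lung replicate 66 lies at a slope of -0.62 and a level of 1.56.

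At lower gavage doses in liver, females at 200 mg/kg-d had 7 of 71 genes lower and 0 higher (9.86%, against 6.78% of all genes lower), with a median of -0.07. They were Uqcr11 (-0.36), Ndufb8 (-0.29), Ndufa11 (-0.28), Ndufa6 (-0.26), Ndufb10 (-0.25) and Ndufs3 (-0.24) with Atp5g1 (-0.28), which encodes the membrane ring of complex V. Ndufa6 ranged over 58.2, 70.8 and 91.1 CPM there and overlapped the vehicle group. Nearest 0 in their complexes were Ndufc1 (0.01), Sdha (-0.04), Uqcrh (-0.02), Cox8a (-0.01) and Atp5b (-0.00). Without replicate 64 of that group 0 were called, without vehicle replicate 12 there were 4, and 0 were called when only the 2 groups compared entered the fit. With the length offset 5 were higher and 3 lower. The share of all genes called in these alternatives is not given here, so their counts do not separate the chain from all genes. In the main fit 10% of all genes were called higher in that group.

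In males at 100 mg/kg-d 1 gene, Cox5a, was higher (2.46% of all genes were) and 0 were lower (2.25% of all genes). Cox5a lies on the matrix side of complex IV. It stood at 53.2, 57.4 and 63.5 CPM in vehicle males, 64.9, 73.2 and 82.9 CPM at 50 mg/kg-d, 63.9, 73.7 and 96.4 CPM at 100, 67.4, 74.01 and 78.9 CPM at 200, and 50.3, 62.2 and 71.7 CPM at 300. The groups at 50, 100 and 200 mg/kg-d lay above all vehicle libraries, and the group at 300 overlapped them. All 4 doses share 1 vehicle group of males, so these are not separate observations. The log2 fold changes were 0.33 (adjusted p = 0.152), 0.38 (SE 0.09, adjusted p = 0.0119), 0.33 (adjusted p = 0.375) and 0.08 (adjusted p = 0.588). In females Cox5a was between -0.00 and 0.11 at all 4 doses, with adjusted p of 0.454 or more.

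In lung at every dose, in liver on days 5 and 28, and in 4 of the 8 liver comparisons of day 2, edgeR called 0 genes of the chain, 44 of 48 comparisons with vehicle in all. The chain had 0 to 45 genes at an unadjusted p under 0.05 in these, beside 215 to 3526 of all genes. In liver at day 2 the share of all genes called was 0.0634% in males at 50 mg/kg-d, 0.0158% in males at 200, 0% in females at 50 and 0.0396% in females at 100. In lung at day 2 it was 0.21% in males at 300 mg/kg-d, 5.41% and 8.73% in females at 200 and 300, 0.00656% at 100 in each sex and 0% in the others. In liver on day 5 it was 0%, 0.039%, 0.101% and 0.405% in males in order of dose and 0%, 0%, 0.0312% and 0.0545% in females. In lung on day 5 it was 0.0383% in males at 1250 ppm and 0% in the other males, and 0%, 0.0128%, 0.0447% and 0.0319% in females. In liver on day 28 it was 0.108%, 0.0155%, 0.163% and 0.0775% in males and 0%, 0%, 0.0387% and 1.16% in females. In lung on day 28 it was 0%, 0%, 0.032% and 0.0128% in males and 0.032%, 0.153%, 0.0831% and 0.121% in females. The calls of all genes were thus few except in lung of females at 200 and 300 mg/kg-d and in liver of females at 2500 ppm on day 28. DESeq2 called 3 genes in liver of males at 1250 ppm on day 28, 1 in lung of males at 1250 ppm on day 28 and 1 in lung of females at 300 ppm on day 5, and 0 in the other comparisons with no edgeR call. Here too the share of all genes called by DESeq2 is not given, so its counts do not separate the chain from all genes. edgeR called a sex difference at the highest dose for 0 genes of the chain in each of the 6 tables (0% to 0.0387% of all genes), with 0 to 44 genes at an unadjusted p under 0.05 and 0 by DESeq2.

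The medians over the chain in feed are given by group, and the 4 doses of a sex, tissue and day share 1 vehicle group. In liver of males they were -0.08, -0.12, -0.18 and -0.09 at 150, 300, 1250 and 2500 ppm on day 5 and -0.14, -0.13, -0.16 and -0.09 on day 28, with no order by dose. The vehicle males of day 28 held replicate 167, in which the median gene of the chain stood 0.59 log2 units above the vehicle mean, against -0.10 in the middle of that group and -0.19 in its lowest library, and the fold changes without it were not computed. In liver of females the medians were 0.03, -0.10, 0.17 and 0.01 on day 5 and -0.06, 0.06, 0.03 and 0.01 on day 28. All genes had medians between -0.01 and 0.01 in these 16 comparisons. In lung of males the medians were 0.23, 0.10, 0.13 and 0.03 on day 5 and 0.18, 0.02, 0.22 and 0.16 on day 28. In lung of females they were -0.01, -0.16, 0.09 and 0.03 on day 5 and 0.07, -0.12, 0.13 and -0.05 on day 28. The lung males at 150 ppm on day 5 held replicate 98, at a level of 0.93 with a length slope of -0.37. The lung females at 1250 ppm on day 28 held replicate 217, at a level of 0.78 with a slope of -0.34. The fold changes without these libraries were not computed. Medians of all genes in lung are drawn in the plot of medians by dose and not listed here. In feed, the genes of the chain with the smallest adjusted p were Ndufa8 in liver (0.067, males at 1250 ppm, day 28) and Cox6a2 and Ndufa7 in lung (0.084, females at 300 ppm, day 5, and 0.089, males at 1250 ppm, day 28).

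**Figure D4:**
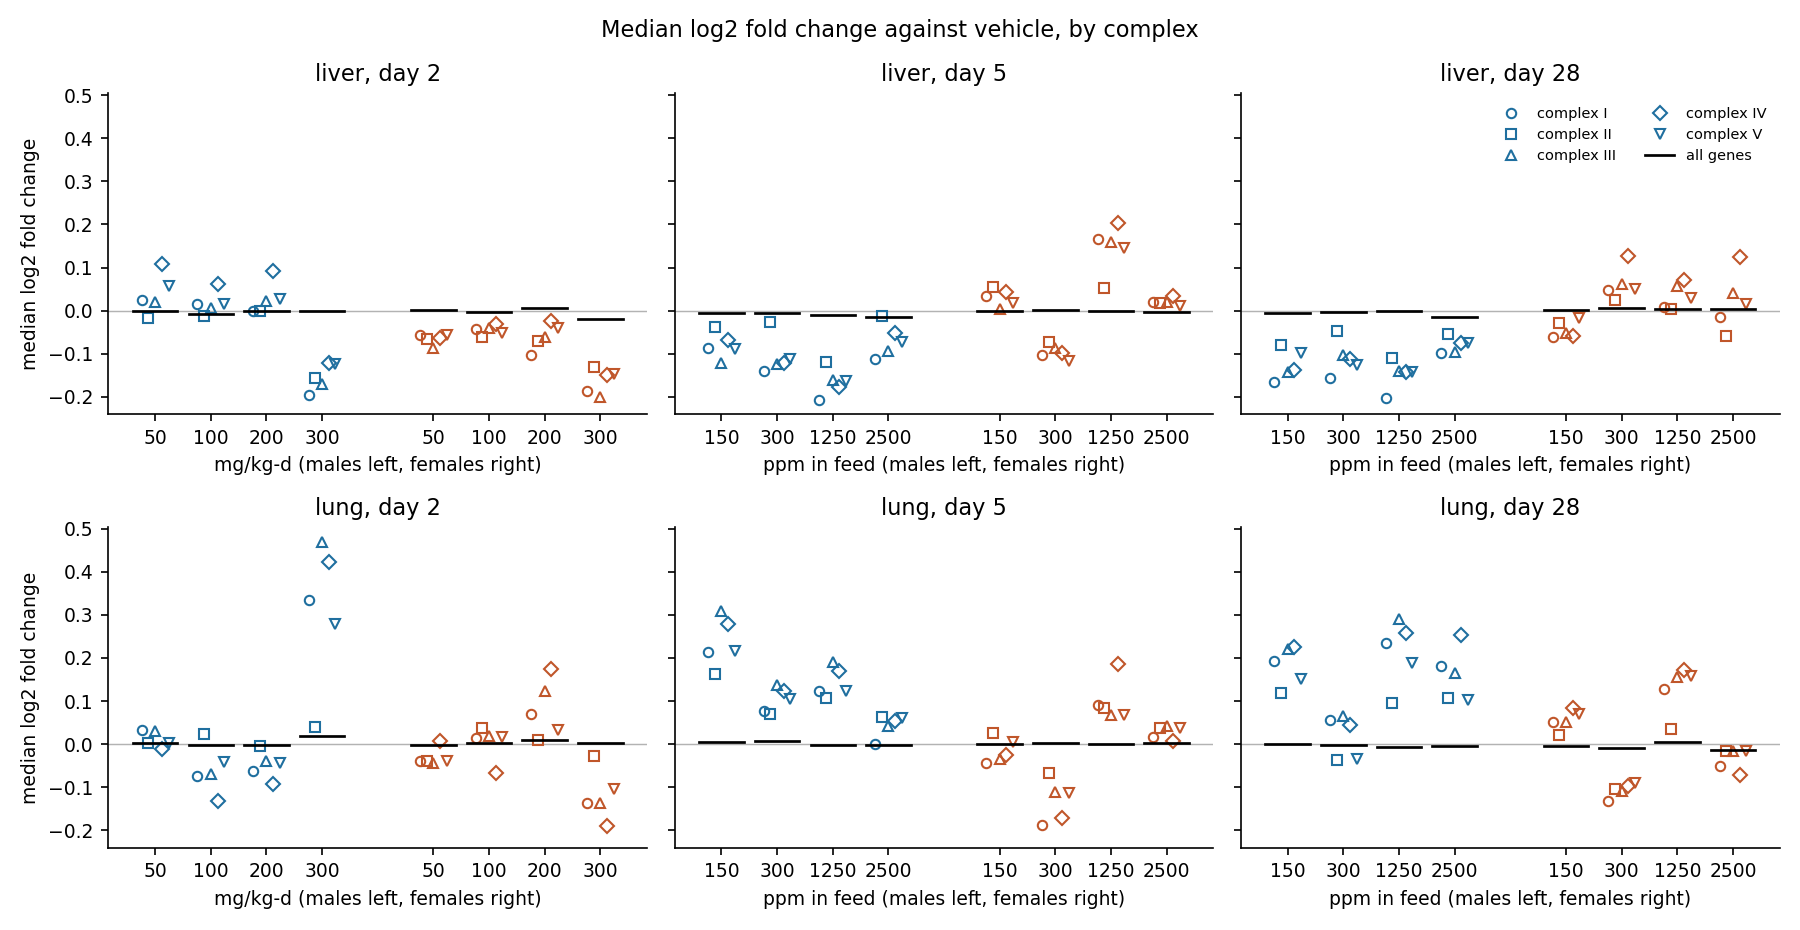
Median log2 fold change against vehicle (vertical axis) of the genes of complexes I to V (symbols) and of all genes tested (black bars) by tissue, day and dose (horizontal axis, mg/kg-d at day 2 and ppm in feed later, males left in blue, females right in orange). In liver at day 2 all 5 complexes lie below 0 at 300 mg/kg-d, and in lung at day 2 the males at 300 mg/kg-d lie above 0, between 0.04 and 0.47.

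Lung at day 2 gave the largest median of all, 0.35 in males at 300 mg/kg-d, with 69 of 73 genes above 0. Of the chain 0 genes were called by edgeR or DESeq2 and 45 passed p 0.05 unadjusted, where 2335 of all 15240 genes passed it. That median rested on replicate 66. The median level of the chain in that library was 1.56 log2 units above vehicle, with a length slope of -0.62, and the other 5 libraries of the group lay between -0.24 and 0.02 with slopes of -0.00 to 0.09. Without it the median was -0.08, with 9 genes at an unadjusted p under 0.05 and 0 called. In that library Cox4i2 reached 110 CPM and Ndufa4l2 51.4 CPM, the highest of the 60 libraries of the table. In females at 300 mg/kg-d the median was -0.13, with 0 called and 2 at an unadjusted p under 0.05, and the library labelled replicate 78 was among them at -0.26. Without it 0 genes were called.

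The effect of 300 mg/kg-d at day 2 was also compared between the tissues. In males 22 of 76 genes had a higher effect in lung than in liver (28.9%, against 3.66% of all 15762 genes) and 0 a lower one (4.60% of all genes), with a median difference of 0.45 on the log2 scale. The largest were Uqcr11 (0.87, adjusted p = 0.0338) and Atp5e (0.86, adjusted p = 0.0328). Without lung replicate 66 there were 0 and the median was 0.05, and with the length offset 1 (median 0.11). Of all genes, 41 of 15810 were higher without replicate 66 and 449 of 15762 with the offset, against 577 in the main fit. Genes called lower were also fewer in both of these fits than in the main fit. The 0 without replicate 66 thus does not separate the chain from all genes. At an unadjusted p under 0.05, 1 gene of the chain passed without replicate 66 and 20 with the offset. In females the edgeR fit called 0 genes (5.91% of all genes), 0 at an unadjusted p under 0.05, with a median of 0.0024.

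In vehicle mice the chain differed far more between tissues than with any dose. Counts were scaled over both tissues with TMM, after which the median log2 difference of lung from liver was 0.20 over all 15762 genes at day 2. On that scale 72 of 76 genes of the chain were lower in lung (94.7%, against 41.2% of all genes) and 4 were higher (5.26%, against 50.1%), with a median of -2.28. The 4 higher genes reached 5 CPM in the lung tables only, so the choice of genes favoured their direction and nothing is read from their count. Atp5k, Cox7c and Ndufc1, counted as lower, reached it in liver only at day 2. Their means were 6.58, 7.50 and 9.45 CPM in liver and 3.22, 2.48 and 4.83 CPM in lung. The choice favoured their direction too, and Atp5k and Cox7c also passed in liver only at days 5 and 28. Atp5s (4.79 CPM in liver, 7.55 in lung) passed at day 2 in lung only and was still lower on this scale. At day 5 72 were lower and 4 higher (median -2.21, with 40.1% of all genes lower and 50.3% higher), and at day 28 72 were lower and 5 higher (median -1.89, with 40.4% lower and 49.8% higher). By complex the medians at day 2 were -2.19 for I, -2.68 for II, -2.59 for III, -2.11 for IV and -2.34 for V. The lowest were Uqcrq (-3.57, SE 0.11) and Atp5g1 (-3.32, SE 0.13), and the genes lower by least were Cox7a2l (-0.71), Atp5s (-0.80) and Ndufc2 (-1.29). With RLE scaling the counts at day 2 were the same, with medians of -2.15 for the chain and 0.33 for all genes. When libraries were scaled by their totals alone, the median of all genes at day 2 was 1.44, and 69 genes of the chain were lower (17.9% of all genes were), 6 were higher and 1, Ndufc2 (-0.05, adjusted p = 0.482), was not called, while Cox7a2l (0.53) and Atp5s (0.44) turned from lower to higher. The median of the chain was then -1.04. With that scaling 68 were lower, 6 higher and 2 not called at day 5 (median -0.84, with 1.58 for all genes), and 61 were lower, 8 higher and 8 not called at day 28 (median -0.57, with 1.499 for all genes). At day 28 Cox7a2l (0.77), Atp5s (0.79) and Ndufc2 (0.15) were higher on it.

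Levels per length estimate the amount of each form of a subunit in the libraries of each tissue, and the lung libraries also carried muscle markers. The values are medians over 12 vehicle libraries at day 2, in CPM of the library total per kilobase of median coding transcript. Cox4i1, the common form of the regulatory subunit of complex IV, had 443 in liver and 216 in lung, and its lung form Cox4i2 had 0 in liver and 56.2 in lung. In counts, the 12 liver libraries held 6 reads of Cox4i2 in all, with 8 libraries at 0, and the 12 lung libraries held 7578. Cox6a1 had 233 in liver and 127.4 in lung, and the muscle form Cox6a2 had 0 and 31.8. The liver libraries held 3 reads of Cox6a2 in all, with 10 at 0, and the lung libraries held 3643, so no fold is given for either gene. Cox6b1 had 142.8 and 80.1, and Cox6b2 had 0.409 and 23.3. Cox7a2 had 67.1 and 26.5, and the muscle form Cox7a1 had 1.90 and 7.12. Cox8a had 273 and 182, and Cox8b had 0 and 8.53. The 3 genes of the ring subunit c of complex V had 13.1 and 3.08 (Atp5g1), 0.94 and 1.12 (Atp5g2) and 526.0 and 140 (Atp5g3). Atp5g1 shared 11.1% and Atp5g2 38.3% of their windows of 50 bases with other genes, and Atp5g3 none. The lengths used were 2675.5, 586 and 718.5 bases, so the levels of these 3 genes depend on read placement and on the annotated length. Ndufa4 had 153.9 and 52.04, and its paralog Ndufa4l2, known as a gene of low oxygen and of pericytes, had 0.883 and 26.5. In lung the ranges of the common and the other form did not overlap for Cox4, Cox6a, Cox6b, Cox7a and Cox8, and the common form was higher in each.

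On the TMM scale the genes higher in lung at day 2 were Cox4i2, Cox6a2, Cox6b2 (log2 difference 4.44) and Ndufa4l2 (3.52). At day 28 Cox7a1 (1.11) was higher too, and it likewise reached 5 CPM in lung only. With libraries scaled by their totals alone, the differences were 5.65 for Cox6b2, 4.75 for Ndufa4l2 and 2.42 for Cox7a1. The 12 vehicle liver libraries of day 2 held 28 reads of Cox6b2 in all, so its difference is uncertain. Cox6a2, Cox7a1 and Cox8b moved with muscle markers in the lung libraries, and the relation was not particular to those of heart. Over the 60 lung libraries of day 2, log2(CPM + 0.5) of Cox6a2 had r = 0.86 and rho = 0.87 with the summed CPM of 9 heart muscle markers (permutation p = 1e-05, adjusted p = 2.57e-05 over 54 relations), and r was 0.84 without the 2 libraries farthest from the median. The r was 0.90 at day 5 (59 libraries) and 0.92 at day 28 (60 libraries), and within groups it was 0.87, 0.90 and 0.92. For Cox7a1 r was 0.87, 0.91 and 0.90 and for Cox8b it was 0.79, 0.73 and 0.75 at days 2, 5 and 28. With skeletal muscle markers rho was 0.80, 0.82 and 0.84 for Cox6a2, Cox7a1 and Cox8b at day 2 and 0.90, 0.87 and 0.81 at day 5, and with brown adipocyte markers r of Cox8b was 0.68 at day 5 and 0.69 at day 28. These sources were not told apart. With heart markers Cox4i2 had r of 0.04, 0.14 and -0.01, Ndufa4l2 0.01, 0.16 and 0.12, and Cox6b2 0.11, -0.04 and -0.01, with adjusted p of 0.324 or more. Ndufa4l2 had r of 0.47 with skeletal muscle markers at day 5 (adjusted p = 0.00152), but rho was 0.20. With brown adipocyte markers r was -0.43 for Ndufa4l2 (adjusted p = 0.00129) and -0.31 for Cox6b2 (0.0302) at day 2, and -0.30 for Cox4i2 (0.0411) at day 28. The other relations of these genes had an adjusted p of r of 0.0714 or more. The heart marker sum ran from 71.1 to 1778 CPM (median 674) over the lung libraries of day 2, and Myh6, the atrial and ventricular myosin of the mouse heart, had 0 reads in all 12 vehicle liver libraries.

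**Figure D5:**
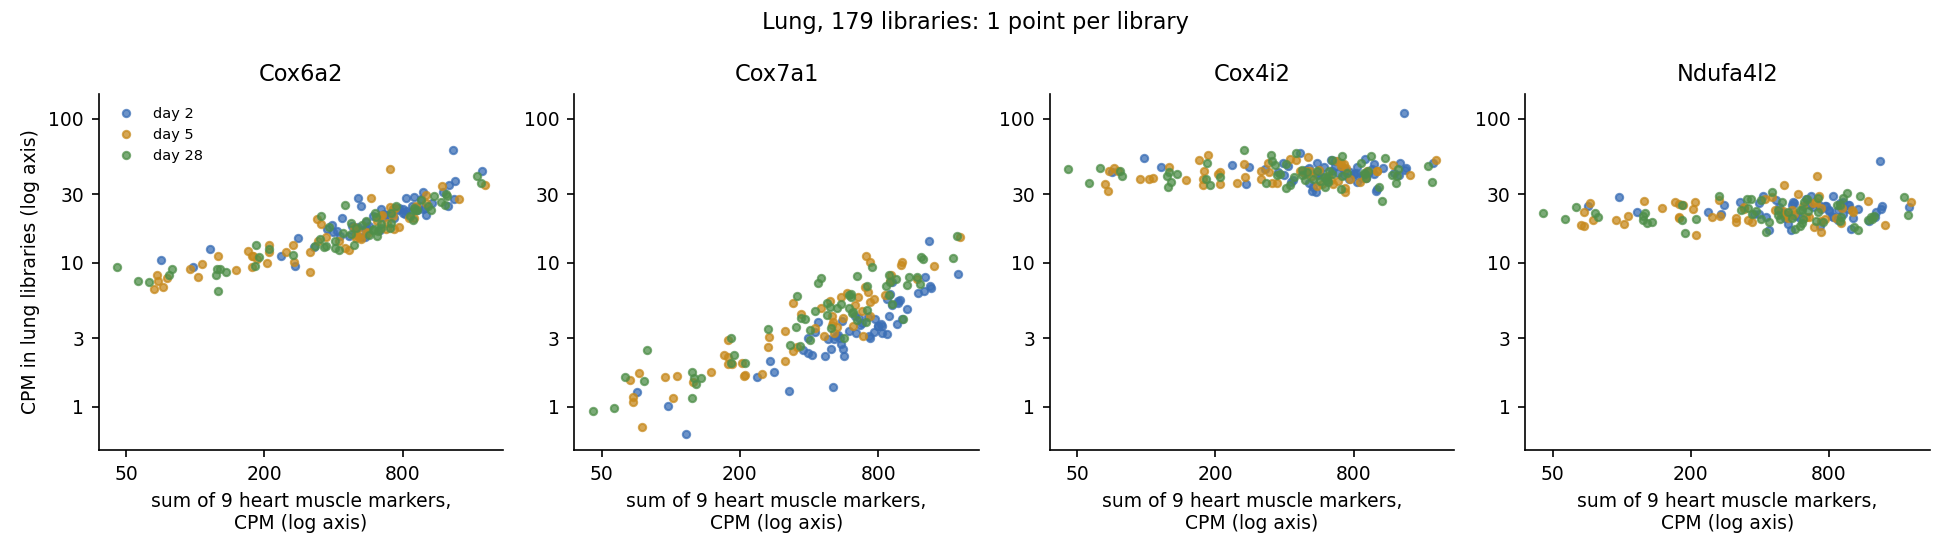
CPM in lung libraries (vertical axes, log scale) of Cox6a2, Cox7a1, Cox4i2 and Ndufa4l2 against the summed CPM of 9 heart muscle markers (horizontal axes, log scale). Each point is 1 library and colours give the day. Cox6a2 and Cox7a1 rise with the marker sum (r of 0.86 and 0.87 at day 2), while r is 0.04 for Cox4i2 and 0.01 for Ndufa4l2.

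The marker sum also differed between dose groups where a muscle form came nearest to a call. In lung of females at 300 ppm on day 5, Cox6a2 had 6.60 to 15.3 CPM against 11.1 to 45.1 CPM in vehicle, a log2 fold change of -1.36 (adjusted p = 0.084). The heart marker sum there was 66.9 to 519 CPM (median 164) against 178 to 1165 CPM (median 650). Vehicle replicate 90 of that day also carried a skeletal muscle marker sum of 1716 CPM. In lung of females at 2500 ppm on day 28, Cox7a1 was at 1.22 (adjusted p = 0.246), and replicate 238 had 15.3 CPM of Cox7a1, 27.9 CPM of Cox8b, a heart marker sum of 1765 CPM and 114.96 CPM of Ucp1, the uncoupling protein of brown fat. The part of these cells in the fold changes was not tested.

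Other genes of the pathway were also followed in liver at day 2 and 300 mg/kg-d. The lists were chosen with earlier results of these data known. Counts are set beside 6.47% of all genes lower and 8.64% higher in males, and 14.7% lower and 15.3% higher in females. Among 13 assembly factors of complex I, 5 fell in males (median -0.17) and 6 in females (median -0.24), and 0 rose. They included Ndufaf3 (-0.51 in males, -0.74 in females), Ndufaf5 (-0.55 and -0.66), and Ndufaf7 (-0.34 and -0.51). Among 10 factors of complexes II and III, 2 fell in males and 3 in females, with Bcs1l, which inserts the Rieske protein, at -0.33 and -0.49, Sdhaf4 at -0.40 in males, and Lyrm7 (-0.82) and Uqcc2 (-0.42) in females. Among 21 factors of complex IV, 3 fell and 1 rose in males, and 8 fell and 1 rose in females: Cox16 was at -0.43 and -0.38, Cox19 (-0.39) and Cmc1 (-0.27) fell in males, and Coa3 (-0.41) and Cox18 (-0.39) fell in females. Of 3 factors of complex V edgeR called 0 in either sex, and 0 passed an unadjusted p under 0.05.

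Ribosomal protein genes fell in larger numbers. Of 75 tested genes for proteins of the mitochondrial ribosome, which translates the subunits encoded in mitochondrial DNA, 30 fell in males and 47 in females, and 0 rose, with medians of -0.23 and -0.27. Mrpl12 was at -0.47 in males (adjusted p = 6.4e-05) and Mrps27 at -0.61 in females (adjusted p = 0.00259). Of 76 tested genes for the cytosolic ribosome, 11 fell in males and 39 in females, with medians of -0.24 and -0.31, and Rps14 was at -0.33 in males. Of 13 citric acid cycle enzymes edgeR called 0 in males (3 at an unadjusted p under 0.05), and in females Ogdh (0.33) rose and Cs, citrate synthase (-0.32), and Idh3g (-0.14) fell. Among 13 regulators of mitochondrial biogenesis Yy1 rose in both sexes (0.41 and 0.66), and Tfb2m and Gabpa rose in females (both 0.36). That is 1 of 13 in males and 3 of 13 in females, where 8.64% and 15.3% of all genes were higher. Of 8 subunits and carriers outside the symbol rule, Atpif1, the inhibitor of complex V (-0.40), and Cyc1 (-0.17) fell and Etfdh rose (0.31) in females. The median length of the longest transcript was 1849 bases for the mitochondrial and 1108 for the cytosolic ribosomal proteins, and 4153 bases for the regulators. At 2500 ppm in feed edgeR called 0 genes of these lists on day 5 or 28 in either tissue, with 0 to 28 genes of a list at an unadjusted p under 0.05. At 1250 ppm Ndufaf3, an assembly factor of complex I, was lower in liver of males on day 28 (-0.49, SE 0.10, edgeR adjusted p = 0.0308).

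In females at 200 mg/kg-d, Ppargc1a, a coactivator of nuclear respiratory genes, rose by 1.35 (SE 0.37, adjusted p = 0.0092), and Yy1 (0.39) and Nrf1 (0.35) rose too, while Ndufaf3 was at -0.69 and Bcs1l at -0.43. In that group 4 of 13 regulators were higher, 13 of 75 mitochondrial ribosomal genes were lower, and of 13 complex I assembly factors 5 were lower and 1 was higher, where 10% of all genes were higher and 6.78% lower. Fh1, fumarate hydratase of the citric acid cycle, was higher (0.66). In lung at 300 mg/kg-d edgeR called 0 genes of these lists in males, with 0 to 45 of a list at an unadjusted p under 0.05, and in females Etfdh rose (0.25) and Mrps28 fell (-0.41).

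The genes outside the chain whose log2 CPM was most like the median of the chain over the 60 liver libraries of day 2 were Stard10 (r = 0.90), a lipid transfer protein, Tomm6 (r = 0.90), a small subunit of the outer membrane import pore, 2410015M20Rik (r = 0.90), Sod1 (r = 0.89), the cytosolic superoxide dismutase, and Shfm1 (r = 0.88). These correlations describe libraries that share depth and length trend, and no test was made.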

How the data were processed

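Liver and lung mRNA of B6C3F1 mice was sequenced after 2, 5 or 28 days of 4-MEI. The labels' protocols name a TruSeq Stranded mRNA library kit. Trimmomatic, Bowtie2, SAMtools, HTSeq and the build mm10 are named in the submitters' processing notes as the authors' tools. For versions, annotation and strand setting nothing is given in the sources used here, so reads of overlapping antisense genes may be shared. The deposited values are raw counts per gene symbol, 1 table for each tissue and day, and 1 column without a name was not used. Groups follow the sample titles. At day 28 titles and characteristics disagreed on the dose of 96 libraries, 48 of which also disagreed on sex.

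Genes passed filterByExpr, libraries were TMM-scaled, and tests ran in edgeR 4.0.16 (R 4.3.3) by quasi-likelihood with robust spread with 1 mean per group of a table. Adjustment followed Benjamini and Hochberg, over all genes tested in a comparison (threshold 0.05). SE is the fold change over the square root of the test statistic. Tissues were compared in fits of both tables of a day. Fits were checked on simulated counts. DESeq2 1.42.0, RLE scaling, no filter, a length offset per library (lowess of span 0.3 on log2 transcript length), only the groups compared, the place of the title number in its block of 8, left-out libraries, and total counts alone for tissues were alternatives. Lengths and coordinates are from GENCODE M21 on GRCm38, the same build as mm10, and promoters from RefSeq.

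The genes, lists and tests were chosen with earlier results of these data known. Named genes are, per comparison with 3 or more calls and per complex, up to 3 called genes with the largest change and the gene nearest 0, all genes called in comparisons with fewer, the tissue forms, and up to 3 called genes of each pathway list. The lung library labelled replicate 78 and all other libraries were kept. A result that needs an item withheld for evaluation is not reported here.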

Additional observations from a re-analysis of the deposited data

Results flagged for a closer look

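The level of the respiratory chain in 1 library stood apart from the other libraries of its group in 4 of 60 groups, each time as the highest, by Dixon's gap to range ratio at 95%, a limit that chance passes in about 1 of 20 groups. These were lung replicate 66 of males at 300 mg/kg-d on day 2 (1.56 log2 units above vehicle, length slope -0.62), lung replicate 98 of males at 150 ppm on day 5 (0.93, slope -0.37), lung replicate 217 of females at 1250 ppm on day 28 (0.78, slope -0.34) and liver replicate 167 of vehicle males on day 28 (0.59, slope -0.21). Among the 5 genes with values by library in liver at day 2, 3 of 20 groups of vehicle and 300 mg/kg-d libraries held such a value: Ndufa6 in vehicle females, replicate 15 (103.7 CPM), and Ndufa6 and Uqcr11 in vehicle males, replicate 6 (102.2 and 29.7 CPM).

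The effect of 300 mg/kg-d at day 2 differed between lung and liver for 22 of 76 genes in males by the test of the difference itself. Without lung replicate 66 it was called for 0, and with the length offset for 1. Calls over all genes were also fewer without replicate 66, so that 0 does not separate the chain from all genes.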

How the results depend on the processing

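The smaller counts depended on the processing. Unless stated, the share of all genes called in an alternative is not given, so its count does not separate the chain from all genes. In liver at day 2, the 7 genes lower in males at 300 mg/kg-d became 2 without a filter on low counts, 0 with the length offset, 1 (higher) with the offset from coding transcripts, 11 with DESeq2 and 0 to 15 with 1 library left out. The 19 lower in females became 9 (5 higher, 4 lower) with the length offset, 3 (all higher) with the coding offset and 10 to 26 with 1 library left out. The 7 of females at 200 mg/kg-d became 0 when only the 2 groups compared were fitted and 0 to 4 without replicate 64 or 12, and the 1 of males at 100 mg/kg-d became 2 with either offset. Under the length offset the fold changes in females of Sdhb (0.0047), Cox6b1 (0.018) and Atp5o (0.015) were above 0, and under the coding offset that of Cox6b1 (0.031). Calls also appeared where the main fit had 0: with the length and the coding offset, 8 and 11 in lung of females at 200 mg/kg-d, 3 and 4 in lung of males at 1250 ppm on day 5, and 3 and 4 in lung of females at 300 ppm on day 28. The coding offset gave 2 in liver of females and 4 in lung of males at 2500 ppm on day 28. Fits of only the 2 groups compared gave 6 in lung of females at 300 mg/kg-d, 7 in lung of females at 300 ppm on day 5 and 6 in lung of males at 2500 ppm on day 28, DESeq2 gave 3 in liver of males at 1250 ppm on day 28, and lung of males at 300 mg/kg-d had 0 to 2 with 1 library left out. The cause was not tested. The tissue difference of the effect in males, 22 genes, was 0 without lung replicate 66 and 1 with the length offset. The labels do not say whether a title number shared by liver and lung marks 1 animal, and the numbers were not taken as pairs: the correlation of their deviations from group means was over 0.1 in 13 of 49 pairs at day 2 (median 0.077), 9 of 42 at day 5 and 10 of 46 at day 28. With the number as a replicate block the 22 became 0 (median 0.31), and the vehicle counts of 72 lower and 4 higher at day 2 did not change. RLE scaling, the place of the title number and the other CPM limits for choosing genes kept each of these counts within 1.5 times. The coding offset, the omission of each liver library of the vehicle and 300 mg/kg-d groups, the omission of replicate 66 and the length offset in the tissue difference, and scaling by total counts were chosen after seeing the data. How far depth sets the SE was not tested.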
